A study of Mus musculus with 8 samples.

Results

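The genes described here are 50 genes of the G2 phase and of mitosis, taken by name from a list of cyclins, mitotic kinases, kinetochore, spindle and chromosome proteins, out of 16649 genes in the deposited matrix. The rule itself used no measured value, but the list was drawn up with earlier results of these data known. All 50 were found in the matrix, and all 50 passed the low-count filter that left 13412 genes for testing. They were followed in single-cell RNA profiles of mouse splenic CD4+ T cells from female mice of 10 weeks, which were either wild type (WT) or lacked Gpr65 (KO), a receptor on the cell surface that senses extracellular protons. Cells were driven in culture toward Th17 with IL-1b at 20 ng/ml, IL-6 at 25 ng/ml and IL-23 at 20 ng/ml, or toward Th22 where IL-6 was raised to 40 ng/ml and 400 nM FICZ was added, which binds the aryl hydrocarbon receptor, with IL-1b and IL-23 unaltered. The polarizations thus differed in both IL-6 and FICZ, and all cultures shared IL-1b, IL-23 and a harvest at day 3. WT Th17, KO Th17, WT Th22 and KO Th22 were each profiled in 2 libraries. The labels do not say how the KO was made, or whether the 2 libraries of a group came from separate mice or cultures, so each p-value measures the spread between libraries, which may be technical.

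Cells that commit to division copy their DNA in S phase, pass through G2 and then separate their chromosomes in mitosis. Cdk1 with its B-type cyclins drives entry into mitosis, the kinetochore and spindle proteins move the chromosomes, and the anaphase-promoting complex with Cdc20 ends mitosis by marking cyclins and other proteins for destruction. The mRNAs of most such genes are low in resting cells and peak together late in the cycle. Their summed level in a T cell culture thus depends in part on how many activated cells are close to division. Many of their promoters carry CCAAT boxes, bound by NF-Y, and the cell cycle genes homology region (CHR), a short element read by the DREAM and MuvB complexes.

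The promoters of 5 genes are shown because they span the range of these elements among the genes that carry the results: Lbr and Gas2l3 had the differences between KO and WT that passed the test, Ccnb2 and Top2a are typical late cell cycle genes, and Birc5 held none of the letters searched. Each is the 250 bases upstream of the RefSeq start site on GRCm38.p6, read 5′ to 3′ on the strand of the gene, with matches to a CHR (TTTGAA), to a variant of it (TTCGAA, which reads the same on both strands) and to the CCAAT box in capitals, searched on both strands. The windows are chr1:181842402-181842651, minus strand (Lbr), chr10:89443968-89444217, minus strand (Gas2l3), chr9:70421555-70421804, minus strand (Ccnb2), chr11:99024190-99024439, minus strand (Top2a) and chr11:117848987-117849236, plus strand (Birc5). In GENCODE vM21 none of the 5 windows overlaps an exon, and the Lbr window lies inside the gene body of a longer Lbr model.
Lbr: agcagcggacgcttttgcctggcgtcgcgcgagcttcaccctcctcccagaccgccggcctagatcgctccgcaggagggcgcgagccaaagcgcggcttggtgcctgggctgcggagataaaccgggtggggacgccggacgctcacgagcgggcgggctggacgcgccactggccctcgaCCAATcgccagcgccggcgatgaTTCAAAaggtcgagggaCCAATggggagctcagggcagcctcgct
Gas2l3: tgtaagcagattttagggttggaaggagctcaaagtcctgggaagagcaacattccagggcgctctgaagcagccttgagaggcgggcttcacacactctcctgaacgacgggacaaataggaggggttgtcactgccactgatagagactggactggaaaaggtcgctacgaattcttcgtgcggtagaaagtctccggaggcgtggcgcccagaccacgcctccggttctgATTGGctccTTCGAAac
Ccnb2: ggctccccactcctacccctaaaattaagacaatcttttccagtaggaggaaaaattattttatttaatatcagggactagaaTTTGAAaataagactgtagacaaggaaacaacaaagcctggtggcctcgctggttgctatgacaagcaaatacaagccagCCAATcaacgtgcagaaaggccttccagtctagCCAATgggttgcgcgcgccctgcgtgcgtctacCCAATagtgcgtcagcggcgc
Top2a: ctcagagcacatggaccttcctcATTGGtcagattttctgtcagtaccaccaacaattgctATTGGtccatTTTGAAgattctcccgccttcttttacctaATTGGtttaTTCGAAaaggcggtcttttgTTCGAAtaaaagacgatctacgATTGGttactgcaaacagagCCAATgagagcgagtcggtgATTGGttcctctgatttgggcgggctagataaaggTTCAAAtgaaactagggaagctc
Birc5: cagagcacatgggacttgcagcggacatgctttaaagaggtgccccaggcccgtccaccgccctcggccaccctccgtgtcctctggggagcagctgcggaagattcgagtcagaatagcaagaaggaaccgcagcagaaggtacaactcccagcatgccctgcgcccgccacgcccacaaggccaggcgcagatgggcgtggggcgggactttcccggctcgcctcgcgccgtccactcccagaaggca

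The Lbr window held TTTGAA, as its complement, with its first base 45 bases before the start site, between CCAAT boxes at 68 and 28. Gas2l3 held TTCGAA 8 bases and a CCAAT box 17 bases before the start. Top2a held 2 matches to TTTGAA, 2 to TTCGAA and 6 to CCAAT, and no match overlapped another in the 5 windows shown. Of the 50 genes, 43 matched the promoter table by symbol. TTTGAA was present in 18 of 43 (41.9%), against 16.0% of the 32851 windows of this length in the table and 13.0% of the tested genes that matched. CCAAT was present in 32 of 43 (74.4%), against 33.8% of the windows and 40.6% of the tested genes that matched. There were 2 or more in 25 of 43 (58.1%), against 10.1% of the windows and 15.4% of the tested genes. Both TTTGAA and CCAAT were present in 16 of 43 (37.2%), against 5.55% of the windows and 5.02% of the tested genes, while 4 of 32 matched S phase genes (12.5%) held both. The S phase genes were close to the mitotic genes in CCAAT alone, with 23 of 32 (71.9%). TTCGAA was found in 3 of 43. A match describes letters in this window and says nothing about binding.

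The libraries held 9969 to 15119 cells after filtering and 33826527 to 58895019 unique molecular identifiers (UMIs, the count of captured mRNA molecules), with a median of 2354 to 4142 UMIs per cell. Gpr65 read 72.9 and 71.98 CPM in WT Th17, 1.58 and 1.55 in KO Th17, 56.7 and 50.6 in WT Th22, and 0.887 and 0.964 in KO Th22, which separated the genotypes as labelled (CPM is a gene's UMIs, summed over the cells of a library and scaled to a common library total, with TMM factors between libraries). The 9 T cell markers summed to 3294 to 4764 CPM. Markers of other cells were low. The 2 CD8 genes summed to 9.99 to 13.5 CPM, and 5 B cell markers to 26.7 to 47.5 CPM with Ms4a1 at 6 UMIs in all cells. The measured erythroid markers, Hbb-bs and Hbb-bt, summed to at most 0.752 CPM. The platelet markers Pf4 and Ppbp were not in the matrix, so platelets were not measured. Of the 103384 cell barcodes, 1269 (1.23%) occurred in 2 or more libraries, with 23 to 67 shared by any pair of libraries.

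The mitotic genes were concentrated in 2 of the 12 deposited clusters. Cluster 3, with 8862 cells, had a summed level of the 50 genes of 6469 CPM (5693 to 7393 over libraries), and cluster 10, with 1140 cells, had 8823 CPM (4792 to 9904). The other clusters ranged from 1258 CPM in cluster 9 to 3529 CPM in cluster 11, with 1479.9 CPM in the largest, cluster 0. All 50 genes were higher in cluster 3 than in the cells outside clusters 3 and 10 in each of the 8 libraries. The clusters are the authors' and may rest on these genes, so these are descriptions and no test was run. Cluster 3 held 24.5% of all UMIs of the 50 genes and cluster 10 held 8.99%, and the far more numerous cells of the other clusters held the rest.

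The size of the step into cluster 3 differed between genes. It was largest for Ccna2, the cyclin that partners Cdk2 and Cdk1 from S phase to early mitosis, at 112 CPM in cluster 3 against 16.8 outside clusters 3 and 10, a log2 ratio of 2.75. Nusap1, a spindle-associated protein, followed with 379 CPM in cluster 3 against 57.5 outside clusters 3 and 10 (2.72), and Cenpf, a large kinetochore protein, with 165 CPM in cluster 3 against 25.6 outside clusters 3 and 10 (2.69). Mki67, the surface protein of mitotic chromosomes used as a proliferation marker, read 189 CPM in cluster 3 against 30.3 outside clusters 3 and 10 (2.64). At the other end stood Psrc1, a microtubule-binding protein, and Ctcf, the insulator protein, each with a log2 ratio of 0.55. Lbr, an inner nuclear membrane receptor that tethers heterochromatin, read 97.5 CPM in cluster 3 against 53.4 outside clusters 3 and 10 (0.87), and Rangap1, the GTPase-activating protein of Ran, 83.4 CPM in cluster 3 against 42.4 outside clusters 3 and 10 (0.98). The median over the 50 genes was 2.33. Most members were thus several times higher in cluster 3. Gtse1, Ckap5, Smc4, Cks2, Tubb4b and Hjurp rose less, with log2 ratios of 1.18 to 1.44. Psrc1, Ctcf, Lbr, Anp32e and Rangap1, with ratios of 0.55 to 0.98, were the most broadly expressed.

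Cluster 10 stood above cluster 3 in the pooled level of all 50 genes, by a log2 ratio of 0.02 for Ttk to 0.88 for Cenpf and Gas2l3, with a median of 0.46. The order did not hold in every library: cluster 10 was the higher in 2 of 8 libraries for Ndc80, in 4 of 8 for Birc5, Nuf2, Ckap2, Mki67 and Ctcf, and in 5 to 8 for the other genes. The pooled level weights libraries by their cells, and WT Th22 replicate 2 (305 cells) and KO Th22 replicate 1 (274 cells) held the most of cluster 10. Ube2c, the E2 enzyme that works with the anaphase-promoting complex, read 1040.1 CPM in cluster 10 against 589 in cluster 3. Hmmr, a spindle assembly factor, read 208 against 126, and Cdc20, the activator of the same complex, 174 against 114. Ndc80 and Ctcf were nearly equal between them, with log2 ratios of 0.04. The cells of cluster 10 were deep, with a median of 7216.5 UMIs against 3102 in cluster 3, and whether they include pairs of cells captured together was not tested. In the KO Th17 libraries cluster 10 was different: it held 41 and 52 cells, with medians of 1965 and 1837 UMIs, against 6365 to 7655 UMIs in the other 6 libraries.

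Another pattern appeared outside the dividing cells. Psrc1 and Gtse1, a microtubule-associated protein that also restrains p53, were higher in cluster 6 than in cluster 3: Psrc1 read 170.3 CPM in cluster 6 (136 to 240 over libraries, unscaled) against 106 (65.3 to 156), and Gtse1 17.8 (8.87 to 25.8) against 12.6 (6.20 to 19.3), so the ranges over libraries overlapped for both. Mki67 was low in cluster 6, at 19.1 CPM. The 14 p53 target genes of a separate list (Cdkn1a, Mdm2, Ccng1, Phlda3 and others) summed to 2239.7 CPM in cluster 6 (2054 to 2438) and to 777 to 1084 CPM in each of the other 11 clusters, a separation in all libraries of cluster 6 from the highest library elsewhere (1323 CPM). Cells with a positive G2/M score gave 23.0% of the Psrc1 UMIs and 35.7% of the Gtse1 UMIs, against 81.9% for Cenpf and a median of 64.2% over the 50 genes.

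**Figure D1:**
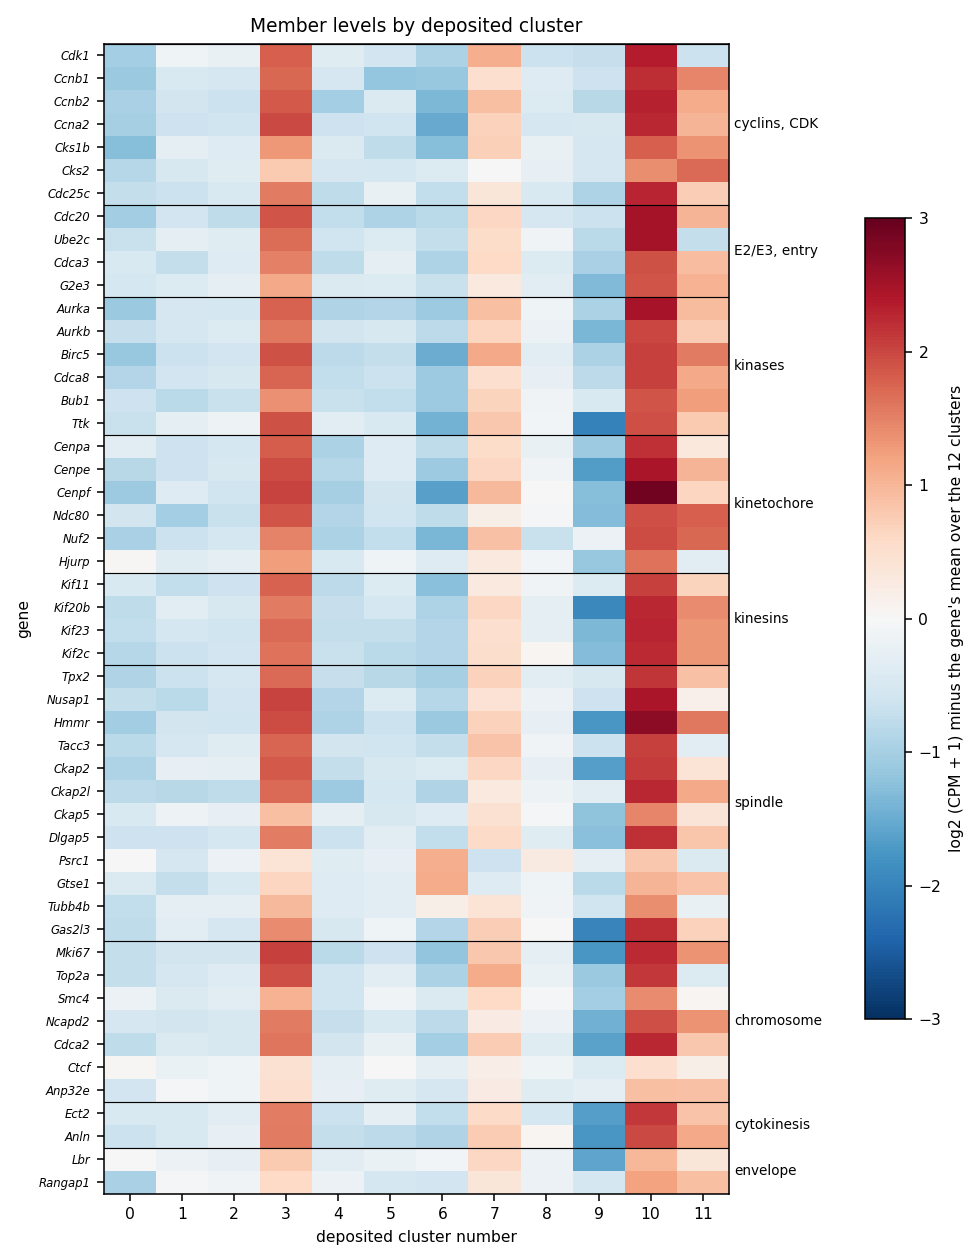
Level of each of the 50 genes (rows, grouped by role) in the 12 deposited clusters (columns), as log2 of CPM plus 1 minus the gene's mean over clusters; cells of all 8 libraries are pooled. Clusters 3 and 10 are red for nearly all genes, cluster 7 and cluster 11 less so for most, and Psrc1 and Gtse1 are also red in cluster 6. Cluster 11 is above cluster 3 for Cks2 (289 against 152 CPM), Anp32e, Rangap1, Nuf2, Cks1b and Gtse1.

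Summed over all cells of a library, the 50 genes reached 2197 and 2125 CPM in WT Th17, 2310.5 and 1858 in KO Th17, 2241 and 2596 in WT Th22, and 2504 and 1950.4 in KO Th22. In Th17 KO replicate 1 lay above and KO replicate 2 below both WT libraries, and in Th22 KO replicate 1 lay between the WT libraries and KO replicate 2 below both. Group means were 2084 ± 320.1 CPM (SD, n = 2) in KO Th17 against 2161 ± 51.3 in WT Th17, and 2227 ± 392 in KO Th22 against 2419 ± 251 in WT Th22. The log2 ratio of KO to WT was -0.05 in Th17 and -0.12 in Th22, smaller than the spread between the 2 KO libraries. A lower level in such a sum can come from fewer cells near division or from less mRNA in each, which these sums cannot tell apart; the levels within cluster 3 and the shares of cells are given further on.

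No member passed the test between KO and WT within either polarization. The test was edgeR's quasi-likelihood F test on summed counts with Benjamini-Hochberg adjustment over the 13412 genes at 0.05, which called 0.186% of all genes in Th17 and 0.149% in Th22. At an unadjusted p under 0.05 there were 5 members in Th17, where 12.2% of all genes passed that mark, and 5 in Th22, where 11.7% did. DESeq2 called none in Th17 and Ckap2, a spindle protein, in Th22. Over both polarizations, with polarization as a term, 2 members were called, Lbr and Gas2l3, both lower in KO, where 2.93% of all genes were called and 1.52% were called lower. DESeq2 called the same 2 and Rangap1, which was higher. The model counts the 4 libraries of a genotype as independent, although same-numbered libraries of a genotype deviated together (correlation of deviations 0.57 in KO and 0.23 in WT). With the libraries of 1 genotype and number summed, edgeR called no member (smallest adjusted p = 0.37) and 6 genes in all, from 2 sums for each genotype. The median log2 fold change of the 50 genes was -0.01 in Th17, -0.10 in Th22 and -0.09 over both, and the medians of all tested genes were 0.00. These medians turned with single libraries. With 1 library left out the Th17 median ran from -0.21 (without KO replicate 1) to 0.14 (without KO replicate 2), and it was also positive, at 0.02, without WT replicate 1. The Th22 median ran from -0.37 (without KO replicate 1) to 0.04 (without KO replicate 2), with 0.03 without WT replicate 2. The median over both ran from -0.17 (without KO Th17 replicate 1) to 0.01 (without KO Th22 replicate 2), with 5 to 26 positive signs. The sign was negative in both polarizations for 25 members, against 32.7% of all genes, positive in both for 6, and mixed for the other 19.

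Lbr was the member with the smallest adjusted p. It spans 181815335 to 181843046 on the minus strand of chromosome 1 in mm10 (GENCODE vM21, ENSMUSG00000004880). Its level was 63.4 and 65.4 CPM in WT Th17, 50.02 and 44.4 in KO Th17, 71.5 and 74.7 in WT Th22, and 56.3 and 45.5 in KO Th22. All 4 KO libraries lay below all 4 WT libraries, and the highest KO library was below the lowest WT library. On the log2 scale, KO differed from WT by -0.49 ± 0.08 (SE) over both polarizations (adjusted p = 0.022), -0.45 ± 0.13 in Th17 (adjusted p = 0.23) and -0.52 ± 0.13 in Th22 (adjusted p = 0.22). The size of the difference was similar whichever library was left out, from -0.54 to -0.42, but the call ended in 5 of the 8 fits with 1 library left out, those without a WT library and the one without KO Th17 replicate 2. It also ended with the libraries of 1 genotype and number summed, at -0.48 (edgeR adjusted p = 0.39). Over all alternatives its adjusted p ran from 7.9e-05 to 0.39.

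Gas2l3, a protein that binds actin and microtubules and acts at the central spindle and midbody, spans 89408823 to 89443967 on the minus strand of chromosome 10 (ENSMUSG00000074802). It is the least abundant of the 50, with 1000 UMIs in all cells, and read 3.04 and 2.93 CPM in WT Th17, 2.06 and 1.88 in KO Th17, 3.31 and 4.77 in WT Th22, and 2.47 and 2.29 in KO Th22. Again every KO library lay below every WT library, and WT Th22 replicate 2 was the highest of the 8. Its fold change on the log2 scale was -0.69 ± 0.14 over both polarizations (adjusted p = 0.04), -0.60 ± 0.21 in Th17 (adjusted p = 0.32) and -0.77 ± 0.20 in Th22 (adjusted p = 0.25). The call was lost when any 1 of the 8 libraries was left out, with log2 fold changes from -0.77 to -0.55, and with the libraries of 1 genotype and number summed (-0.69, edgeR adjusted p = 0.39), and its adjusted p over all alternatives ran from 0.0047 to 0.39.

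Rangap1 was the 1 member with every KO library above every WT library. It spans 81704248 to 81745530 on the minus strand of chromosome 15 (ENSMUSG00000022391) and read 46.1 and 38.6 CPM in WT Th17, 52.4 and 55.8 in KO Th17, 43.01 and 44.3 in WT Th22, and 47.8 and 55.4 in KO Th22. Its difference on the log2 scale was 0.30 ± 0.08 over both polarizations (adjusted p = 0.099), which did not pass. Of all tested genes, 5.13% had every KO library below every WT library, as Lbr and Gas2l3 did, and 5.70% had the reverse order.

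**Figure D2:**
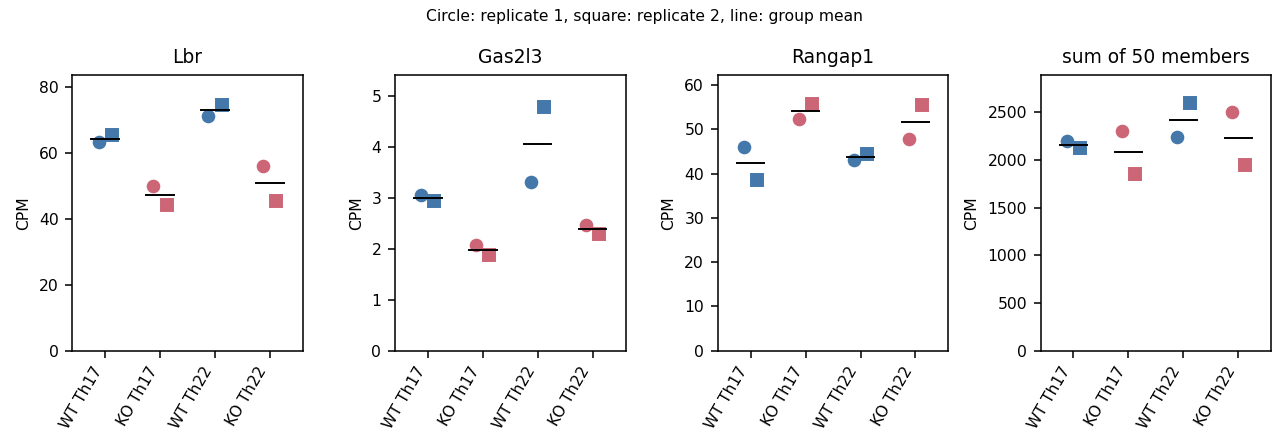
CPM of Lbr, Gas2l3, Rangap1 and the sum of the 50 genes in each library (circle, replicate 1; square, replicate 2; blue, WT; red, KO; line, group mean). The KO points of Lbr (44.4 to 56.3) lie below the WT points (63.4 to 74.7), those of Gas2l3 (1.88 to 2.47) below 2.93 to 4.77, and those of Rangap1 (47.8 to 55.8) above 38.6 to 46.1, while the summed levels of KO and WT overlap.

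Lbr was also lower in KO when only cells of cluster 3 were summed. Within that cluster it read 106 and 99.2 CPM in WT Th17, 70.3 and 78.96 in KO Th17, 127 and 123 in WT Th22, and 91.5 and 81.8 in KO Th22, again with all KO libraries below all WT libraries. The log2 fold change over both polarizations was -0.50 ± 0.09 (adjusted p = 0.044), and Lbr was the 1 member called, where 0.429% of 9785 genes were called. Among cells with a G2/M score above 0 it was -0.40 ± 0.08 (adjusted p = 0.039), again the 1 member called, where 0.848% of 10735 genes were. The first call was lost without KO Th17 replicate 1, KO Th22 replicate 2 or any WT library, and the second without any 1 library except KO Th22 replicate 1. Over the alternatives the adjusted p ran from 0.010 to 0.24 in cluster 3 and from 0.0059 to 0.17 in the cells with a positive score. Signs within cluster 3 were mostly negative: 3 of the 50 members had a positive log2 fold change over both polarizations, with a median of -0.17 against 0.00 for all genes tested there. That median was -0.29 without KO Th17 replicate 2, and -0.08 with 19 positive signs without both KO replicate 1 libraries. With 1 library left out 2 to 9 were positive. Cluster 3 itself varied in its share of cells with a G2/M score above 0. That share was 53.9% and 68.0% in KO Th17 against 72.6% and 58.4% in WT Th17. In Th22 it was 56.2% and 58.5% in KO against 73.3% and 69.9% in WT. The part of this mix in the signs within cluster 3 was not tested. Signs among the cells with a positive score were positive for 13, with a median of -0.07, which was -0.02 without KO Th17 replicate 1 and -0.11 without KO Th22 replicate 2. By polarization the median in these cells was -0.14 with 7 positive signs in Th17, and 0.02 with 27 in Th22. Gas2l3 in cluster 3 read 12.4 and 10.4 CPM in WT Th17, 5.99 and 6.60 in KO Th17, 10.96 and 15.1 in WT Th22, and 5.95 and 9.46 in KO Th22, with every KO library below every WT library, a log2 fold change of -0.81 and an adjusted p of 0.12.

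Of the tested markers of other cells (3 B cell, 2 myeloid, 5 gamma-delta T and NK and 2 CD8 genes), 1 was called between KO and WT over both polarizations, Ighm. The 5 B cell markers, almost all of it Ighm, had a lower sum in KO within each polarization. They summed to 26.7 and 30.1 CPM in KO Th17 against 43.4 and 36.02 in WT Th17. In Th22 they summed to 34.4 and 36.98 CPM in KO against 47.5 in both WT libraries. Of the 3 tested B cell markers, 2 had a negative sign over both polarizations and 1 a positive one. Ighm fell, with an edgeR adjusted p of 0.024. The 9 T cell markers of the cultured cells themselves also had a lower sum in KO within each polarization. They summed to 3294 and 3446 CPM in KO Th17 against 3900.3 and 4009 in WT Th17. In Th22 they summed to 4369 and 4518 CPM in KO against 4653 and 4764 in WT. Single T cell markers did not all fall. Over both polarizations 7 of the 9 had a negative sign and 2 a positive one, with log2 fold changes up to 0.31. Positive signs numbered 3 in Th17 and 2 in Th22. Cd4 fell, with a log2 fold change of -0.36 (edgeR adjusted p = 0.044). The 3 measured myeloid markers, mostly Cd68, had a higher sum in KO within each polarization. They summed to 26.2 and 20.9 CPM in KO Th17 against 18.1 and 18.2 in WT Th17. In Th22 they summed to 31.02 and 25.9 CPM in KO against 24.0 and 24.4 in WT. Csf1r had 6 UMIs in all cells. The part of these markers and their cells in the differences of Lbr and Gas2l3 was not tested.

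No cyclin, and neither Cdk1 nor its partners, passed the test between genotypes. Cdk1, the kinase that triggers mitosis, read 24.9 and 23.5 CPM in WT Th17, 20.8 and 20.2 in KO Th17, 23.7 and 28.2 in WT Th22, and 23.6 and 24.7 in KO Th22. Both KO Th17 libraries were below both WT Th17 libraries and the Th22 libraries overlapped, with -0.17 ± 0.08 over both polarizations. Ccnb1, the cyclin that moves into the nucleus with Cdk1 at mitotic entry, read 27.2 and 24.7 CPM in WT Th17, 34.8 and 24.8 in KO Th17, 26.9 and 29.98 in WT Th22, and 31.3 and 25.4 in KO Th22. Its highest library was KO Th17 replicate 1, and the fold change was 0.10 ± 0.12. Ccnb2, the other B-type cyclin, read 33.6 and 30.2 CPM in WT Th17, 35.8 and 30.05 in KO Th17, 39.98 and 47.99 in WT Th22, and 40.3 and 31.6 in KO Th22, with the 2 highest values in WT Th22 replicate 2 and KO Th22 replicate 1 and a fold change of -0.13 ± 0.12. Ccna2 read 23.1 and 27.6 CPM in WT Th17, 30.1 and 19.6 in KO Th17, 26.2 and 32.4 in WT Th22, and 36.9 and 23.9 in KO Th22: in each polarization the KO libraries lay on either side of the WT pair, and the fold change was 0.01 ± 0.17. The Cdk-binding subunits varied little. Cks1b read 39.5 and 40.2 CPM in WT Th17, 41.3 and 37.8 in KO Th17, 37.7 and 46.1 in WT Th22, and 41.8 and 45.7 in KO Th22 (0.03 ± 0.08), and Cks2 read 66.9 and 73.1 CPM in WT Th17, 79.97 and 67.2 in KO Th17, 63.7 and 74.03 in WT Th22, and 82.6 and 68.9 in KO Th22 (0.11 ± 0.09). Cdc25c, the phosphatase that activates Cdk1, ranged from 5.09 to 9.12 CPM. Of the 7 genes in this group, 4 had a positive sign over both polarizations, 3 a negative one and none passed.

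Among the ubiquitin enzymes and entry factors, Cdc20 read 29.7 and 26.5 CPM in WT Th17, 27.5 and 24.6 in KO Th17, 30.5 and 36.7 in WT Th22, and 32.8 and 27.7 in KO Th22, with overlap in both polarizations and a fold change of -0.13 ± 0.09. Ube2c, the most abundant member in UMIs, read 199 and 207 CPM in WT Th17, 188 and 145 in KO Th17, 191 and 230.3 in WT Th22, and 218 and 179 in KO Th22. Both KO Th17 libraries were below both WT Th17 libraries, the Th22 libraries overlapped, and the fold change was -0.18 ± 0.11. Cdca3, a trigger of mitotic entry, and G2e3, a G2/M ubiquitin ligase, had fold changes of 0.05 ± 0.16 and -0.23 ± 0.15. In Th22 both KO libraries of G2e3 were below both WT libraries, at 14.6 and 11.6 CPM against 18.1 and 20.3, with a log2 fold change of -0.55 ± 0.16 (adjusted p = 0.27). None of the 4 passed.

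The mitotic kinases and the passenger complex, which corrects faulty attachments of chromosomes to the spindle, gave no call either. Aurka, the centrosomal kinase, had the narrowest range of the 50 genes, with 13.02 and 11.4 CPM in WT Th17, 11.6 and 11.9 in KO Th17, 11.8 and 12.9 in WT Th22, and 12.1 and 12.9 in KO Th22 (-0.02 ± 0.08). Aurkb, the kinase of the passenger complex, read 17.2 and 16.6 CPM in WT Th17, 17.2 and 16.4 in KO Th17, 18.1 and 22.8 in WT Th22, and 19.6 and 18.2 in KO Th22 (-0.06 ± 0.09). Birc5 (survivin), its partner, read 54.7 and 49.6 CPM in WT Th17, 53.4 and 45.5 in KO Th17, 57.8 and 69.9 in WT Th22, and 63.4 and 55.3 in KO Th22 (-0.09 ± 0.09). In both genes the genotypes overlapped. Cdca8 (borealin), another subunit, ranged from 64.8 to 99.8 CPM. Bub1, a checkpoint kinase at the kinetochore, differed between the KO replicates: it read 7.19 and 7.63 CPM in WT Th17, 10.7 and 5.19 in KO Th17, 7.63 and 10.6 in WT Th22, and 11.98 and 6.56 in KO Th22. KO replicate 1 was above and KO replicate 2 below both WT libraries in each polarization, and the fold change was 0.06 ± 0.25, with the widest standard error of the 50. Ttk, the kinase that starts the spindle checkpoint, read 6.54 and 4.08 CPM in WT Th17, 7.26 and 6.79 in KO Th17, 8.02 and 8.36 in WT Th22, and 5.99 and 4.33 in KO Th22. Both KO Th17 libraries were above both WT Th17 libraries and both KO Th22 libraries below both WT Th22 libraries, with fold changes of 0.41 ± 0.24 (adjusted p = 0.54) and -0.67 ± 0.24 (adjusted p = 0.34). None of the 6 passed.

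At the centromere and kinetochore, 5 of 6 genes had a negative sign over both polarizations and none passed. Cenpa, the histone H3 variant that marks centromeres, read 150.0 and 174 CPM in WT Th17, 149.5 and 99.1 in KO Th17, 131 and 164 in WT Th22, and 164 and 106 in KO Th22. Both KO Th17 libraries were below both WT Th17 libraries, with KO Th17 replicate 1 and WT Th17 replicate 1 almost equal, and the fold change was -0.26 ± 0.17. Cenpf read 44.3 and 38.4 CPM in WT Th17, 40.7 and 38.8 in KO Th17, 47.3 and 55.7 in WT Th22, and 45.8 and 39.3 in KO Th22: the KO Th22 libraries were below both WT Th22 libraries, the Th17 libraries overlapped, and the fold change was -0.17 ± 0.09. Ndc80, the microtubule-binding subunit of the outer kinetochore, repeated the pattern of Bub1 with 23.6 and 24.1 CPM in WT Th17, 32.5 and 16.7 in KO Th17, 23.9 and 30.5 in WT Th22, and 35.5 and 18.1 in KO Th22 (0.01 ± 0.24). Hjurp, the chaperone that deposits Cenpa, Cenpe, a kinetochore motor, and Nuf2, the partner of Ndc80, had fold changes of -0.21 ± 0.17, -0.12 ± 0.13 and -0.01 ± 0.15.

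The kinesins had a median log2 fold change of -0.01 over both polarizations, and none of the 4 passed. Kif11, the motor that pushes the spindle poles apart, read 20.6 and 21.7 CPM in WT Th17, 26.5 and 15.7 in KO Th17, 17.01 and 23.00 in WT Th22, and 25.7 and 15.5 in KO Th22 (0.02 ± 0.20). Replicate 1 was the higher KO library in both polarizations. Kif20b and Kif23, motors of the midzone and cytokinesis, and Kif2c, which disassembles microtubules, had fold changes of -0.04 ± 0.13, -0.20 ± 0.13 and 0.05 ± 0.16.

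Of the 12 spindle and microtubule genes, 10 had a negative sign over both polarizations and 1, Gas2l3, passed. Tpx2, which activates Aurka on the spindle, read 42.00 and 39.7 CPM in WT Th17, 53.6 and 35.2 in KO Th17, 43.2 and 49.6 in WT Th22, and 53.3 and 37.4 in KO Th22 (0.04 ± 0.15). Nusap1 read 86.8 and 70.8 CPM in WT Th17, 102 and 77.3 in KO Th17, 110.3 and 138 in WT Th22, and 109 and 64.5 in KO Th22. Its KO Th22 libraries were below both WT Th22 libraries, its KO Th17 libraries lay within or above the WT pair, and the fold change was -0.52 ± 0.26 in Th22 and 0.19 ± 0.26 in Th17. Hmmr read 30.6 and 27.8 CPM in WT Th17, 31.2 and 26.8 in KO Th17, 35.6 and 41.7 in WT Th22, and 40.97 and 27.4 in KO Th22 (-0.09 ± 0.13). Ckap2 had the third lowest fold change over both, -0.44 ± 0.14 (adjusted p = 0.14), with 14.4 and 11.3 CPM in WT Th17, 11.3 and 12.2 in KO Th17, 16.8 and 18.5 in WT Th22, and 11.2 and 9.76 in KO Th22. The wider gap was in Th22, where both KO libraries were below both WT libraries (-0.75 ± 0.15, adjusted p = 0.17), while the Th17 fold change was -0.13 ± 0.15, and the interaction did not pass (adjusted p = 0.99). Psrc1 had the second highest fold change, 0.23 ± 0.19, with 62.4 and 63.2 CPM in WT Th17, 93.2 and 55.03 in KO Th17, 76.4 and 80.2 in WT Th22, and 115 and 66.8 in KO Th22. Both of its KO replicate 1 libraries were above all others, and KO Th17 replicate 2 was the lowest of the 8. Tacc3, Ckap5 and Ckap2l, which act on spindle microtubules, had -0.08 ± 0.13, -0.08 ± 0.08 and -0.09 ± 0.15, Dlgap5, which stabilizes kinetochore fibres, -0.01 ± 0.17, Gtse1 -0.21 ± 0.18 and Tubb4b, a beta-tubulin, -0.01 ± 0.07.

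None of the 7 chromosome proteins passed. Mki67 read 47.5 and 46.7 CPM in WT Th17, 50.6 and 37.9 in KO Th17, 43.9 and 59.4 in WT Th22, and 58.04 and 39.5 in KO Th22 (-0.09 ± 0.15), and Top2a, the topoisomerase that untangles sister chromatids, 190.1 and 146 CPM in WT Th17, 196 and 159 in KO Th17, 197 and 226 in WT Th22, and 185 and 139 in KO Th22 (-0.16 ± 0.15). Mki67 overlapped in both polarizations, and for Top2a both KO Th22 libraries were below both WT Th22 libraries. Smc4, the core subunit of condensin, read 119 and 137 CPM in WT Th17, 135 and 109 in KO Th17, 114 and 135 in WT Th22, and 159.8 and 104 in KO Th22 (0.01 ± 0.14). Ctcf was lower in both KO libraries in each polarization, with 95.2 and 97.3 CPM in WT Th17, 83.05 and 77.04 in KO Th17, 98.00 and 104 in WT Th22, and 95.2 and 83.6 in KO Th22, but its fold change of -0.22 ± 0.07 did not pass (adjusted p = 0.13). Ncapd2, another condensin subunit, Cdca2, a chromosome-bound regulator of phosphatase 1, and Anp32e, a histone chaperone, had -0.10 ± 0.17, -0.10 ± 0.15 and -0.02 ± 0.08. For cytokinesis, Anln, a scaffold of the contractile ring, had -0.32 ± 0.10 (adjusted p = 0.14), with both KO libraries below both WT libraries in each polarization, and Ect2, the activator of RhoA at the midzone, had -0.08 ± 0.19.

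In all, 7 members had both KO Th17 libraries below both WT Th17 libraries, where 21.7% of all tested genes did, and 2 had the reverse, where 20.8% did. In Th22 these counts were 10, against 21.8%, and 1, against 20.4%. These orders were thus no more frequent among the members than among all genes.

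**Figure D3:**
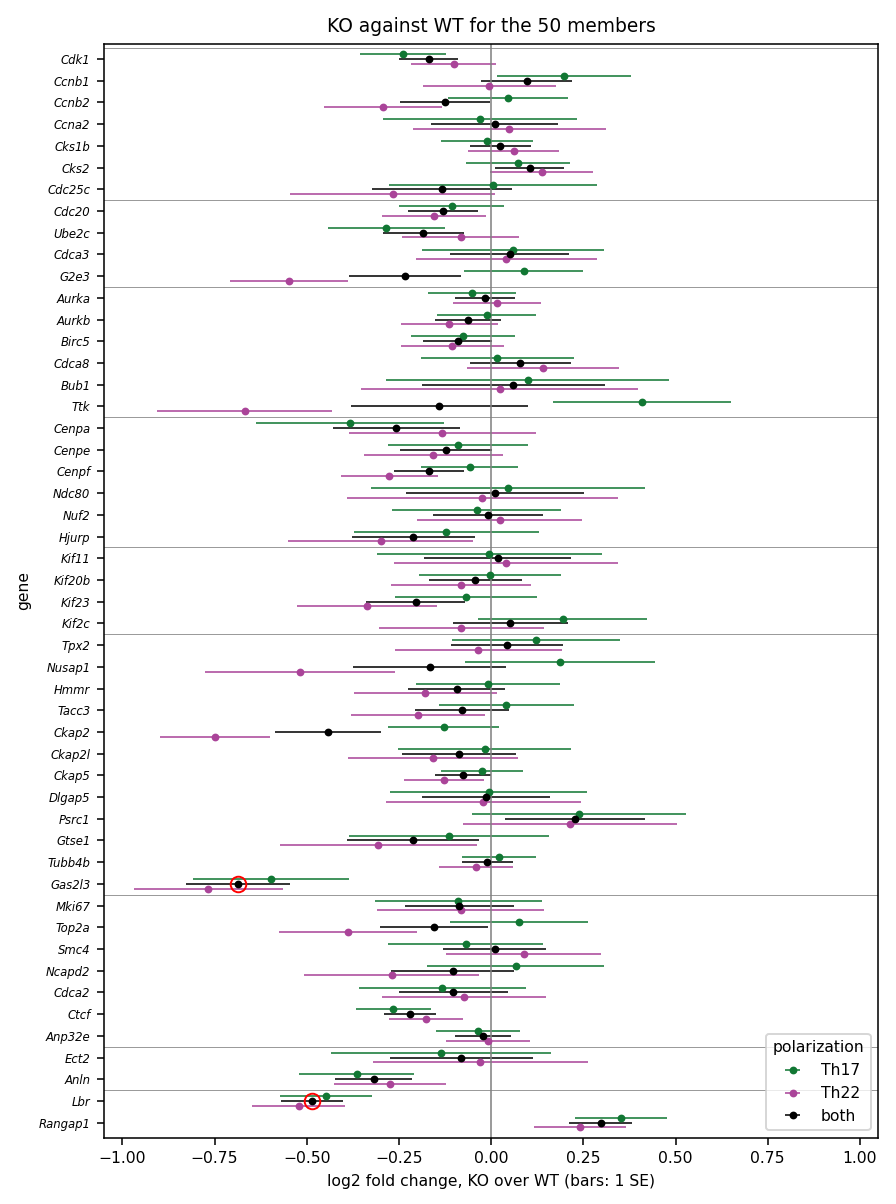
Log2 fold change of KO over WT for the 50 genes (rows, grouped by role) in Th17 (green), in Th22 (purple) and over both polarizations (black), with bars of 1 SE. The 2 red circles mark the calls, Gas2l3 (-0.69) and Lbr (-0.49), and most other bars cross 0 or lie close to it.

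The difference between the 2 KO libraries of a polarization was larger than that between genotypes. The members' median log2 ratio of replicate 1 to replicate 2 was 0.33 in KO Th17, with 46 of 50 genes higher in replicate 1, and 0.41 in KO Th22, with 44 of 50. In WT Th17 it was 0.08, with 31 of 50, and in WT Th22 -0.26, with 49 of 50 higher in replicate 2. Over the 6339 genes at 10 CPM or more, the medians were between -0.01 and 0.01. KO replicate 1 was above KO replicate 2 in both polarizations for 43 of 50 members, against 37.5% of all tested genes. The exceptions were Cdk1, Cks1b, Aurka, Ckap2, Tubb4b, Anp32e and Rangap1. KO Th17 replicate 2 was the lowest of the 8 libraries for 27 members, against 15.5% of all genes. In 10 members (Ccna2, Cdca3, Bub1, Ndc80, Kif11, Kif20b, Tpx2, Dlgap5, Psrc1 and Ect2) replicate 1 was above and replicate 2 below both WT libraries in both polarizations, against 4.21% of all genes.

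Other gene lists also differed between the KO libraries of a polarization, and not all in the members' direction. The sum of the T cell markers was lower in KO replicate 1, at 3294 against 3446 CPM in Th17 and 4369 against 4518 in Th22. The sums of the B cell and of the CD8 markers were also lower in KO replicate 1 in both polarizations. The 5 measured markers of gamma-delta T and NK cells summed to 37.01 and 16.5 CPM in KO Th17, 43.96 and 22.6 in KO Th22, 18.9 and 31.1 in WT Th17, and 21.1 and 33.6 in WT Th22. When clusters 7, 9 and 11 were left out, the summed members' ratio of replicate 1 to replicate 2 was 1.23 in KO Th17 and 1.28 in KO Th22, against 1.24 and 1.28 with all clusters. The 44 S phase genes summed to 1082 and 877 CPM in KO Th17 and to 1034 and 987 in KO Th22, against 863 to 935 in WT. Without KO Th17 replicate 1 and KO Th22 replicate 1, 13 members were called between KO and WT over both polarizations, 12 lower and Rangap1 higher, where 14.1% of 13685 genes were called.

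**Figure D4:**
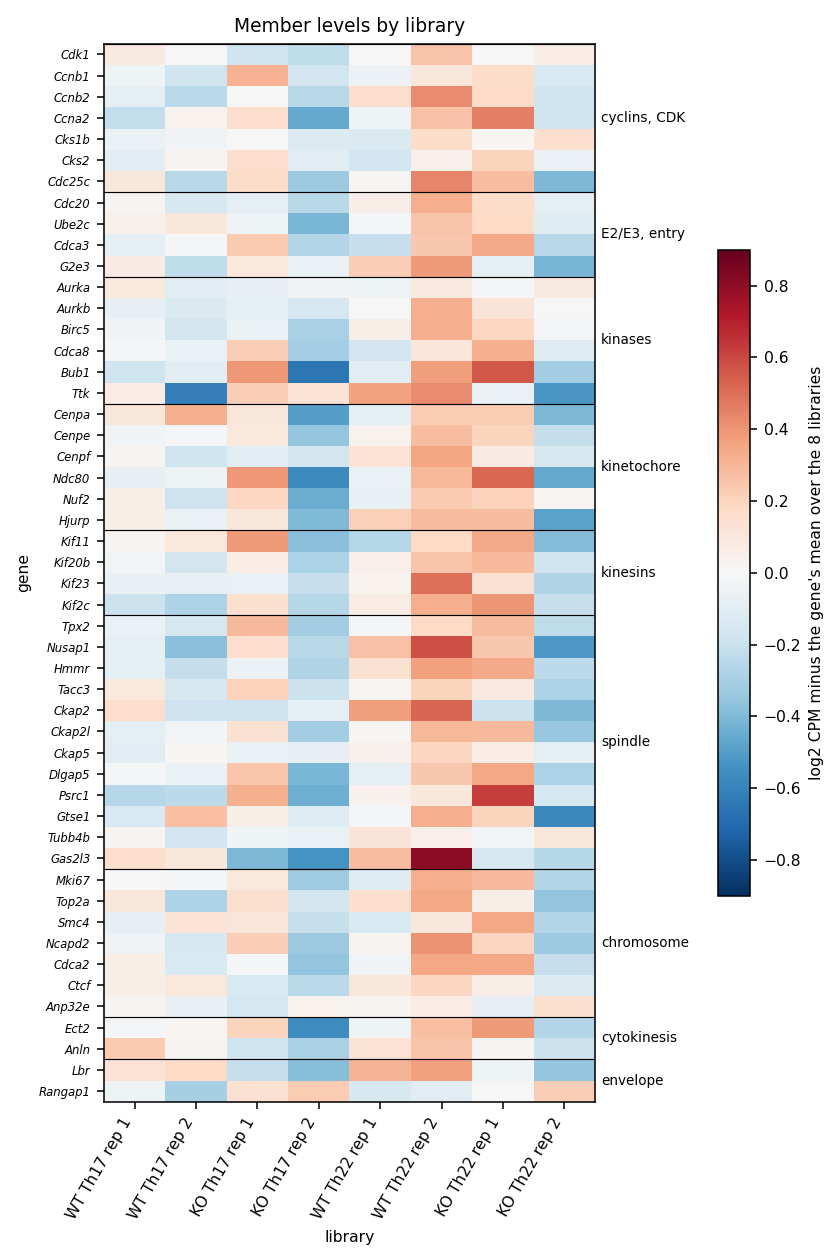
Level of each of the 50 genes (rows, grouped by role) in the 8 libraries (columns), as log2 CPM minus the gene's mean over libraries. The replicate 2 columns of both KO groups are blue for most genes while the replicate 1 columns are red or pale, and WT Th22 replicate 2 is red for most genes.

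The deposited table gives each cell a G2/M score. No source used here says how it was computed or from which genes, and it may rest on some of the 50 genes, so it is not independent of their levels. A score above 0 was found in 12345 of 101688 cells (12.1%), and 4121 cells (4.05%) lay within 0.05 of 0. Cluster 3 held 46.1% and cluster 10 held 8.22% of the cells with a score above 0. In cluster 3, 64.2% of cells had a score above 0, from 53.9% in KO Th17 replicate 1 to 73.3% in WT Th22 replicate 1. In cluster 10 the share was 83.7% to 97.7% in 6 libraries but 26.8% and 28.8% in the KO Th17 libraries, where the cluster was small and shallow.

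Shares of cells with a score above 0 were 12.6% (95% interval 11.995 to 13.2, exact binomial, counting error only) and 11.6% (10.98 to 12.3) in WT Th17, and 12.1% (11.6 to 12.6) and 9.65% (9.17 to 10.1) in KO Th17. In WT Th22 they were 13.3% (12.8 to 13.9) and 15.8% (15.1 to 16.5), and in KO Th22 14.1% (13.5 to 14.8) and 9.02% (8.56 to 9.50). The replicate 2 libraries of KO were the 2 lowest, and the others overlapped. KO minus WT was -1.23 percentage points in Th17 and -2.99 in Th22 (exact two-sided permutation p = 0.667 for each, where the smallest possible is 0.3333). Over both polarizations it was -2.11 points (exact p = 0.278, smallest possible 0.0556), with 11.2% ± 2.34 (SD, n = 4) in KO against 13.3% ± 1.79 in WT. The difference between the polarizations' KO effects was -1.77 points (exact p = 0.778 over 36 arrangements).

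The share depended on the cut and on depth. With a cut of 0.1, both KO Th17 libraries (6.60% and 6.32%) were below both WT Th17 libraries (9.25% and 9.38%), a difference of -2.85 points (exact p = 0.3333, the smallest possible), while KO Th22 (10.8% and 7.20%) and WT Th22 (10.4% and 13.3%) overlapped. In cells of 2000 to 4000 UMIs, KO minus WT was 1.83 points in Th17 and -5.24 in Th22, where both KO libraries (8.92% and 5.56%) were below both WT libraries (14.7% and 10.3%). In Th17 the 2 genotypes overlapped in this band, and the direction turned in deeper cells: at 4000 to 6000 UMIs both KO Th17 libraries (13.2% and 14.2%) were below both WT Th17 libraries (20.4% and 17.04%), and at 6000 to 10000 UMIs they read 9.58% and 10.9% against 17.8% and 15.0%. In Th22 the KO libraries were below both WT libraries at 4000 to 6000 UMIs (17.7% and 12.3% against 21.5% and 22.7%), and overlapped with them at 6000 to 10000 UMIs (20.4% and 16.4% against 19.1% and 25.6%). The median score was -0.19 to -0.15 in the 4 libraries with a median of 2354 to 2627 UMIs per cell and -0.28 to -0.25 in the 4 with 3669.5 to 4142, so the score was lower in the deeper libraries. The shallower 4 were both KO Th17 libraries and replicate 1 of WT Th17 and of WT Th22. The deeper 4 were both KO Th22 libraries and replicate 2 of WT Th17 and of WT Th22. Depth was thus not balanced between KO and WT, and within KO it followed polarization. In models with the median UMIs of a library as a covariate, the 50 genes had a median KO to WT difference on the log2 scale of 0.07 in Th17 and -0.20 in Th22, and with each cell thinned to 1500 UMIs it was 0.05 and -0.15.

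KO Th17 replicate 1 stood apart in these scores. Its share with an S phase score above 0 was 44.3%, against 30.6% to 36.6% in the other 7 libraries. Its cells with a G2/M score at or below 0 held 1687 CPM of the 50 genes, against 950.1 to 1318 in the others, and 60.2% of the library's member UMIs lay in such cells, against 34.3% to 52.6%. In cells with a score above 0 the level was 7533 CPM in that library and 8080 to 9110.1 CPM in the others.

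**Figure D5:**
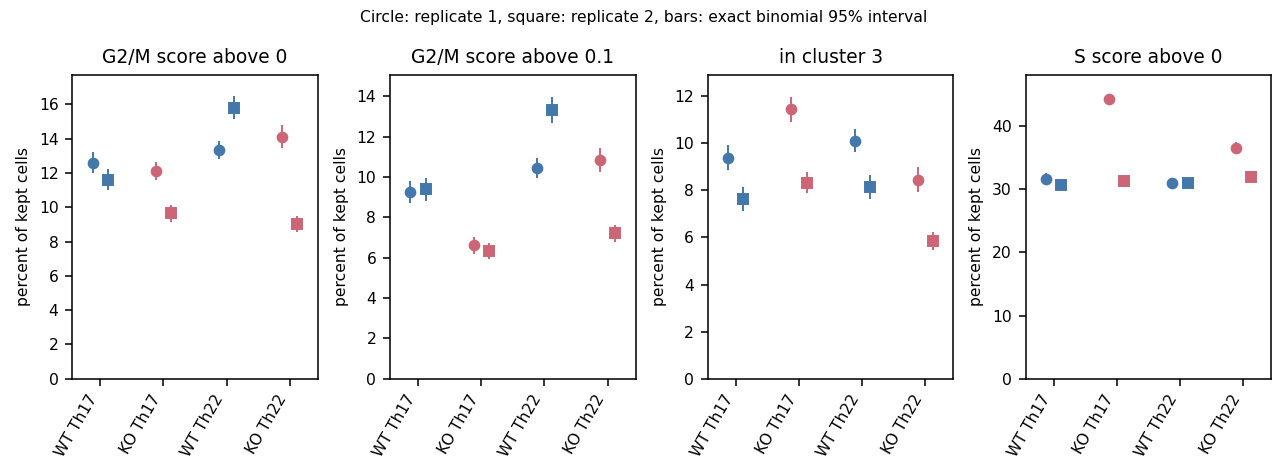
Percent of kept cells with a G2/M score above 0, with a G2/M score above 0.1, in cluster 3, and with an S score above 0, per library (circle, replicate 1; square, replicate 2; blue, WT; red, KO; bars, exact binomial 95% interval). The KO Th17 and WT Th17 points separate at the cut of 0.1 but not at 0, and KO Th17 replicate 1 is high in the S panel (44.3%).

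Most mitotic genes had a higher mean level in Th22 than in Th17 cultures, and none passed the test. The log2 fold change of Th22 over Th17 was positive for 46 of 50 members, with a median of 0.15 against 0.00 for all tested genes. Thinning each cell to 1500 UMIs gave a median of 0.07 with 40 positive signs. A library's median UMIs as a covariate gave 0.11 with 43. In KO both Th22 libraries (4142 and 3669.5 median UMIs) were deeper than both Th17 libraries (2430 and 2354). Polarization and depth cannot be told apart within KO. With 1 library left out the median ran from 0.07 to 0.23 and the positive signs from 39 to 49. The median was 0.07 without KO Th22 replicate 1, 0.08 without WT Th22 replicate 2 or KO Th17 replicate 2, and 0.23 without KO Th17 replicate 1 or KO Th22 replicate 2. None was called by edgeR, where 1.94% of all genes were, 6 had an unadjusted p under 0.05, where 14.5% of all genes did, and DESeq2 called none. The largest differences were Gas2l3 with 0.36 ± 0.14, Hmmr with 0.32 ± 0.13 and Psrc1 with 0.31 ± 0.19. The lowest were Kif11 with -0.06 ± 0.20, Rangap1 with -0.01 ± 0.08 and Gtse1 with -0.01 ± 0.18. Aurkb and Birc5 had all Th22 libraries above all Th17 libraries, as 3.46% of all genes did, and no member had the reverse order, where 3.13% did. A block of genotype and library number was also fitted, since same-numbered libraries of a genotype deviated together (correlation of deviations 0.57 in KO and 0.23 in WT). The labels do not say what the number marks, and the members in WT did not follow it. There 31 of 50 were higher in replicate 1 in Th17, and 49 of 50 were higher in replicate 2 in Th22. Under this block 4 members were called higher, where 11.9% of all genes were called. They were Psrc1 with 0.30 ± 0.05 (adjusted p = 0.0025), Ccna2 with 0.25 ± 0.05 (adjusted p = 0.012), Birc5 with 0.28 ± 0.07 (adjusted p = 0.022) and Hmmr with 0.31 ± 0.08 (adjusted p = 0.043). The share of cells with a G2/M score above 0 was 13.1% ± 2.89 (SD, n = 4) in Th22 and 11.5% ± 1.29 in Th17 (exact p = 0.278), and the size and direction of this difference varied with the cut and the depth. With a cut of 0.1 it was 2.56 points (exact p = 0.0556, the smallest possible), and in cells of 2000 to 4000 UMIs it was -2.50 points. At 4000 to 6000 UMIs the 4 Th22 libraries ran from 12.3% to 22.7% and the 4 Th17 libraries from 13.2% to 20.4%, which overlap.

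No member was called by edgeR's interaction test of whether the KO effect differed between the polarizations, where 0.0% of all genes were called. At an unadjusted p under 0.05 there were 3 members, Ttk, Ckap2 and G2e3, where 4.22% of all genes passed that mark, and DESeq2 called none.

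Other genes of the pathway gave few calls. Of 60 further mitosis genes, 1 was called between KO and WT over both polarizations, where 2.93% of all genes were called and 1.52% called lower. It was Cdc25b, a phosphatase that activates Cdk1, which was lower in KO: it read 35.3 and 28.5 CPM in WT Th17, 19.6 and 19.5 in KO Th17, 26.8 and 29.3 in WT Th22, and 20.7 and 18.2 in KO Th22, with all KO libraries below all WT libraries and a log2 fold change of -0.62 ± 0.09 (adjusted p = 0.015). The 60 genes had 22 positive and 38 negative signs and a median of -0.05. None of 10 transcription factors of the mitotic program was called, with a median of 0.07, and 1 had an unadjusted p under 0.05. The 3 with the smallest p were Nfya with -0.26, Mybl2 with 0.20 and Lin9 with 0.15. Among 44 S phase genes none was called, 9 had an unadjusted p under 0.05, where 19.4% of all genes did, 40 had a positive sign and the median was 0.17. The 3 with the smallest p were Ung with 0.63 ± 0.17, Chaf1b with 0.36 ± 0.11 and Tyms with 0.38 ± 0.14. The S phase genes thus lay mostly above 0, in the same libraries in which the median of the 50 G2/M genes was -0.09. In Th17 their sum was above both WT libraries (889 and 863 CPM) in KO replicate 1 (1082) but between them in KO replicate 2 (877). In Th22 both KO libraries (1034 and 987 CPM) were above both WT libraries (901 and 935). S phase signs with 1 library left out were not counted. Of 13 tested p53 target genes, 9 had a positive and 4 a negative sign, and 1 was called, where 2.93% of all genes were. It was Phlda3, an inhibitor of Akt, which was higher in KO: it read 60.9 and 58.04 CPM in WT Th17, 76.1 and 73.5 in KO Th17, 63.8 and 60.5 in WT Th22, and 80.2 and 71.96 in KO Th22, with a log2 fold change of 0.31 ± 0.07 (adjusted p = 0.044). With the libraries of 1 genotype and number summed, edgeR called neither Cdc25b (adjusted p = 0.28) nor Phlda3 (adjusted p = 0.52).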

How the data were processed

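RNA of single cells was profiled in 8 libraries, 2 for each of 4 groups, and each cell's library, cluster and scores were taken from the deposited cell table. Per the submitters' processing notes, Cell Ranger 5.0.1, Seurat and mm10 were used; which step each served is not given in the sources. The deposited matrix holds raw UMI counts per gene and cell, the deposited cell table holds the percent of mitochondrial UMIs, and the authors' cell cycle score per cell has no stated method. No per-sample column was left unused (0). Counts per cell in the table equalled the matrix in all 104660 cells.

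The cell filter asked for at least 500 genes and no more than 10% mitochondrial UMIs, which left 101688 cells and removed 2972. Doublets were not called; leaving out the 8% of cells with most UMIs in each library (8136 cells) was an alternative. Counts were summed per library, filtered with filterByExpr, scaled by TMM and tested with edgeR 4.0.16 (limma 3.58.1, R 4.3.3), quasi-likelihood F test, Benjamini-Hochberg adjustment at 0.05. The model for both polarizations had genotype and polarization (5 residual degrees of freedom), and the model for each polarization and the interaction had the 4 groups (4 degrees of freedom). Cluster 3 cells and cells with a G2/M score above 0 were summed and tested the same way. Shares of cells were compared by exact permutation of libraries within the other factor (36 arrangements, or 6 within 1 polarization or genotype) with exact binomial 95% intervals, in Python 3.11.15 (numpy 2.4.6, scipy 1.17.1, pandas 2.3.3). The library totals differed by up to 1.74 times.

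Alternatives were DESeq2 1.42.0, its size factors, no filter, each library left out, both KO replicate 1 libraries left out, a replicate block, median UMIs as a covariate, cells thinned to 1500 UMIs (8642 too shallow, 2.74% to 14.6% of a library), all deposited cells, the top 8% left out and clusters 7, 9 and 11 left out. Same-numbered libraries of a genotype deviated together in Th17 and Th22 (correlation of their deviations from the group mean 0.57 in KO and 0.23 in WT), so the blocked value stands beside that comparison. Promoters came from RefSeq (GRCm38.p6) and gene positions from GENCODE vM21 (mm10), matched by symbol. Full values were given for members past the threshold, for the 3 highest and 3 lowest fold changes of each comparison and for 24 named members. The members, lists and rules were chosen with earlier results of these data known. The scripts were tested on simulated data.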

Additional observations from a re-analysis of the deposited data

Results flagged for a closer look

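Ttk, the kinase that starts the spindle checkpoint, had opposite orders of KO and WT in the 2 polarizations. Both KO Th17 libraries (7.26 and 6.79 CPM) were above both WT Th17 libraries (6.54 and 4.08), and both KO Th22 libraries (5.99 and 4.33) were below both WT Th22 libraries (8.02 and 8.36). The KO effect in Th22 minus that in Th17 was -1.08 on the log2 scale. By edgeR's interaction test this had an adjusted p of 0.904. Of all tested genes, 20.8% had both KO Th17 libraries above both WT Th17 libraries. Both KO Th22 libraries were below both WT Th22 libraries for 21.8% of all tested genes. The share of genes with both orders at once was not counted, so how unusual Ttk is was not tested.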

How the results depend on the processing

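Among the 50 genes, KO against WT over both polarizations gave 2 calls, and 0 to 1 when 1 library was left out, 1 with a replicate block, 1 with cells thinned to 1500 UMIs, 1 without the 8% of cells with most UMIs, 0 with the libraries of 1 genotype and number summed, and 13 without both KO replicate 1 libraries. Without that pair there was 1 call in Th17 and 4 in Th22 against 0, and 1 for Th22 against Th17. DESeq2 gave 1 in Th22. Th22 against Th17 gave 4 with genotype and number as a block. Within cluster 3 (1 call) there were 4 without the low-count filter, 0 to 1 with 1 library left out, 4 without the KO replicate 1 pair and 0 with the replicate block. Among cells with a G2/M score above 0 (1 call) these were 3, 0 to 1, 5 and 0. The causes were not tested.

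Replicate numbers did not pair KO with WT (correlation of deviations -0.20 in Th17 and -0.25 in Th22), and the block kept Lbr as its 1 call. The share difference of KO and WT in Th17 was -2.85 points at a score cut of 0.1 and 1.83 in cells of 2000 to 4000 UMIs, and that of Th22 and Th17 was -2.50 in those cells. The summed level of KO over WT in Th17 was -0.22 (log2) without the KO replicate 1 pair and -0.22 to 0.10 with 1 library left out. Over all genes the calls were 25 in Th17 (3 to 247 under the alternatives), 20 in Th22 (1 to 304), 393 over both (6 to 1936), 260 for Th22 against Th17 (54 to 1592), 42 in cluster 3 (5 to 732) and 91 in cells with a positive score (19 to 1118). No result changed sign past a threshold. With 2 libraries a group, no exact test within a polarization could reach 0.05.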
